A study of Mus musculus with 26 samples.

Results

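MicroRNA (miRNA) levels in the CA1 field of the hippocampus were compared between transgenic mice given Vorinostat and wild type littermates given vehicle, to see which miRNAs differed from wild type while the drug was given. The comparison used 10 transgenic Vorinostat libraries and 8 wild type vehicle libraries, 18 of the 26 libraries of the series, chosen by their labels. Wild type vehicle replicate 1 was left out because it was the only library below 1e6 counts. The transgenic vehicle group, 7 libraries, entered the fit and is set beside the values.

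The transgenic animals were CamkdeltaC mice, which carry a form of the delta chain of calcium/calmodulin-dependent protein kinase II. The labels do not name the promoter of the transgene. The well-known line of this name expresses it in heart muscle and develops heart failure, so the brain is examined there as a distant organ. Transgenic mice drank either Vorinostat or vehicle, and wild type littermates drank vehicle, for 4 weeks from an age of 2 months. Both sexes were used, and the sex behind each library is not known here. No wild type mice on Vorinostat were analysed here, so a difference in this comparison holds the transgene and the drug together. The transgene is a messenger RNA, and small RNA libraries do not measure it, so the genotype labels were not checked by its level. Whether every library stems from its own animal is not stated in the labels. The p-values therefore describe the spread from library to library, part of which may be technical.

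A miRNA is a short RNA that guides a silencing complex to messenger RNAs, mainly through its seed, bases 2 to 8 from the 5′ end. Each hairpin precursor can give a mature miRNA from its 5′ arm (-5p) and from its 3′ arm (-3p), and many hairpins lie in clusters that are transcribed together. The let-7 family is abundant in mature neurons and restrains growth and stem cell genes. Vorinostat, also called SAHA, inhibits histone deacetylases, enzymes that remove acetyl groups from histones and other proteins.

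The miRNAs that carry the description are shown first, with the seed in capitals. Mature sequences are from RefSeq on GRCm38.p6, where 516 of the 606 tested miRNAs had an entry. The let-7 guide strands and miR-98-5p are printed because they share a seed, apart from let-7j, and because their values divided by sequence:
let-7a-5p: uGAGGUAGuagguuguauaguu
let-7b-5p: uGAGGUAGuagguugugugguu
let-7c-5p: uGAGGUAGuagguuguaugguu
let-7d-5p: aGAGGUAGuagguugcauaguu
let-7e-5p: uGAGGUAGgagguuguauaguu
let-7k: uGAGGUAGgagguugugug
miR-98-5p: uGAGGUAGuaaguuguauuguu
let-7f-5p: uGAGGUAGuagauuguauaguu
let-7g-5p: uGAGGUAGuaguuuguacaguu
let-7i-5p: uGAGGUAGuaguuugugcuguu
let-7j: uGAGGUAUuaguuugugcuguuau

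The other strand of the let-7b hairpin had the smallest p of all tested miRNAs, and the remaining sequences belong to the miRNAs with the smallest p or to their relatives:
let-7b-3p: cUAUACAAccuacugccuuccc
miR-34b-3p: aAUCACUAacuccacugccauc
miR-188-5p: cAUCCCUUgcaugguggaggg
miR-23b-5p: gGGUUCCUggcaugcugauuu
miR-182-5p: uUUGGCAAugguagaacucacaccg
miR-183-5p: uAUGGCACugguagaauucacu
miR-96-5p: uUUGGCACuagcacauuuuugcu
miR-10b-5p: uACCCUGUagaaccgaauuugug
miR-10a-5p: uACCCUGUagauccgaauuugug
miR-212-5p: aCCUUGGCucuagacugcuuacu

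Total counts, in units of 1e6 (M), were 11.1 ± 3.49 M with Vorinostat (SD, n = 10) and 12.1 ± 2.85 M in wild type (SD, n = 8), with ranges of 3.89 to 15.7 M and 9.13 to 17.6 M. The means did not differ beyond the spread (exact permutation test, two-sided, p = 0.511). Column names place 4 Vorinostat and 5 wild type libraries in lane L001, and 6 Vorinostat and 3 wild type libraries in lane L002. Vorinostat replicate 8 had the lowest total of the 25 libraries in the fit, 3.89 M, and the fewest miRNAs detected, 696. It stood apart at 31.9 on the first principal component of log2 levels, where the other 24 libraries lay between -14.1 and 17.3. Without it that component held 43.1% of the variance and set 9 libraries, 3 of each group, apart from 15, so it crossed the groups.

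Of the 606 miRNAs tested, 0 passed an adjusted p of 0.05 in edgeR's quasi-likelihood test (0% called), and the smallest adjusted p was 0.884. At an unadjusted p under 0.05 there were 25 (4.13%), of which 11 were higher with Vorinostat (1.82%) and 14 lower (2.31%). DESeq2 also called 0, with 32 at an unadjusted p under 0.05, and limma voom called 0, with 23. No miRNA had levels that separated the groups without overlap (0% higher, 0% lower). Over all tested miRNAs the median log2 difference, Vorinostat minus wild type, was -0.01, with quartiles of -0.18 and 0.18. In sign, 291 were higher and 315 lower. The miRNAs described next are thus differences in value, and each had an edgeR adjusted p of at least 0.884 in this contrast.

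The design bounded many miRNAs more closely than the count of calls shows. The 95% interval of the fold lay within 2-fold in either direction for 434 of 606 miRNAs (71.6%), and within 1.5-fold for 208 (34.3%). Among the 67 miRNAs of at least 1000 CPM (counts per 1e6 counts), 59 were bounded within 2-fold, against 145 of the 269 under 10 CPM. The neuronal miR-128-3p, the most abundant miRNA, lay between 172831 and 287581 CPM in wild type and between 191394 and 335312 CPM with Vorinostat. Its log2 difference was 0.21 (95% interval -0.04 to 0.47). miR-9-5p, which acts in neural progenitors and neurons, differed by 0.02 (-0.18 to 0.21), and miR-26a-5p by -0.08 (-0.34 to 0.19).

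**Figure D1:**
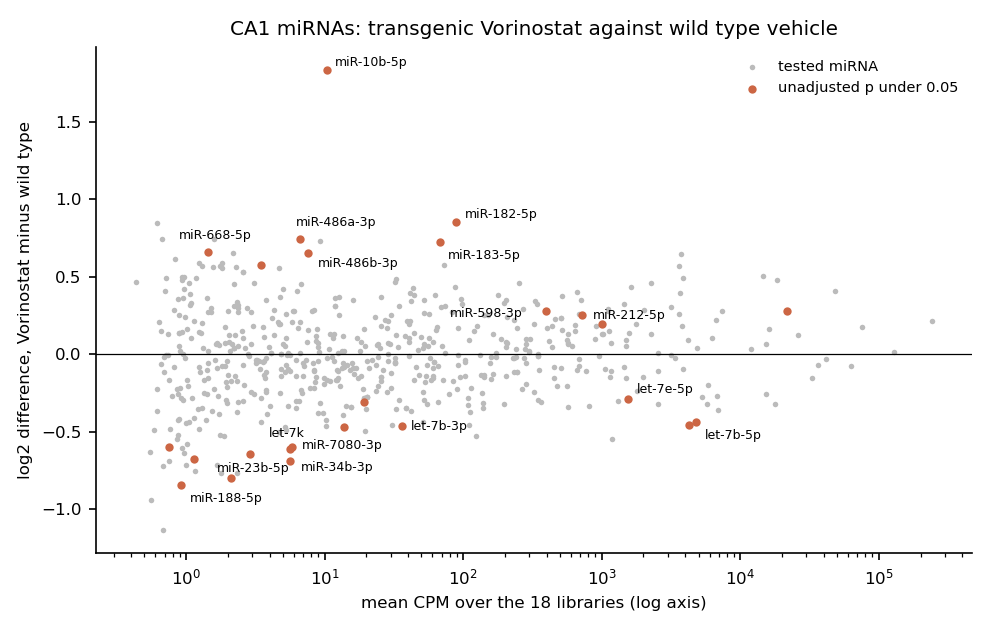
Log2 difference (Vorinostat minus wild type, edgeR) against the mean CPM over the 18 libraries on a log axis, 1 point for each of the 606 tested miRNAs. The 25 with an unadjusted p under 0.05 are orange and the 16 named by rank of p carry labels: miR-10b-5p lies highest at 1.84, let-7b-5p and let-7e-5p are the abundant miRNAs on the lower side, and no point passed the adjusted threshold.

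The lower side was led by let-7. let-7b-5p lies in an exon of the long non-coding RNA gene Lncppara (chr15:85707325-85707346, plus strand, GRCm38). Its levels were lowest 3856, median 4950.5 and highest 8226 CPM in wild type, and lowest 3352, median 3923 and highest 5419 CPM with Vorinostat. The groups overlapped, but 10 of 10 Vorinostat libraries lay below the wild type mean and 5 below every wild type library. That mean, 5615 CPM, was itself above the wild type median, and the highest Vorinostat library also lay above that median. The high end of wild type was made by replicates 9, 5 and 6, which came from both lanes. The log2 difference was -0.44 (SE 0.15, unadjusted p = 0.00703).

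The other strand of the same hairpin was also lower in value, at a far lower level. let-7b-3p (chr15:85707379-85707400) had a lowest, median and highest level of 33.6, 37.6 and 60.97 CPM in wild type and of 23.98, 29.996 and 42.7 CPM with Vorinostat. Again 10 of 10 Vorinostat libraries lay below the wild type mean, which at 42.9 CPM was itself above the wild type median. Of these, 7 lay below every wild type library, replicate 10 only just, at 33.6175 against 33.6215 CPM. With a log2 difference of -0.46 (SE 0.15, unadjusted p = 0.00416), it had the smallest p in the comparison. The hairpin's neighbour let-7c-5p, read also from a copy on chromosome 16, differed by -0.15 (SE 0.09), and the other strand of that neighbour, let-7c-2-3p, by -0.01 (SE 0.20).

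let-7e-5p (chr17:17830366-17830387) lies in an intron of Spaca6. Its levels ran from 1481 through a median of 1677 to 2127 CPM in wild type, and from 1146 through 1475 to 1624 CPM with Vorinostat. As with let-7b, 10 of 10 Vorinostat libraries were below the wild type mean, 5 of them below every wild type library. It differed by -0.29 on the log2 scale (SE 0.10, unadjusted p = 0.00606). Its passenger strand let-7e-3p differed by -0.33 (SE 0.23), and miR-125a-5p, 451 bases away in the same cluster, by -0.46 (SE 0.20, unadjusted p = 0.0322). The third member of that cluster did not share the direction: miR-99b-5p differed by 0.26 (SE 0.28).

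The transgenic vehicle group was compared with wild type for the same miRNAs. let-7b-5p had a median of 4865 CPM there and a log2 difference from wild type of -0.11 (SE 0.16), and let-7e-5p had a median of 1660.4 CPM and a difference of -0.08 (SE 0.11). let-7b-3p had a median of 32.8 CPM and a difference of -0.25 (SE 0.16) from wild type, and 4 of its 7 transgenic vehicle libraries lay below every wild type library. From transgenic vehicle to Vorinostat it differed by -0.21 (SE 0.15), about as much. The genotype contrast and the main contrast share the wild type libraries, so these values are given side by side only.

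Across the family 8 of the 11 guide strands were lower with Vorinostat and 3 higher, with a median of -0.25 beside -0.01 over all tested miRNAs. The 3 at an unadjusted p under 0.05 on the lower side were let-7b-5p, let-7e-5p and the rare let-7k (-0.62, SE 0.25). On the higher side let-7i-5p had 0.28 (SE 0.13) and let-7j 0.20 (SE 0.10), both also at an unadjusted p under 0.05. let-7f-5p and let-7g-5p lay near 0, at -0.03 and 0.06.

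The sign went with the base at position 12, counted from 1 at the 5′ end of the guide, but not with that base alone. The 7 members with G there (let-7a, b, c, d, e, k and miR-98) had log2 differences from -0.62 to -0.15. The 3 with U there (let-7g, let-7i and let-7j, each with G12U against let-7a-5p) had differences from 0.06 to 0.28, and let-7f-5p, with G12A, had -0.03. The same 3 members, and no others, also carry U18C against let-7a-5p, so the bases at these positions cannot be told apart. This grouping was made after the values were seen and is a description. let-7j carries G8U against let-7i-5p over 22 bases, and let-7k carries U9G against let-7b-5p over 19 bases, so reads of these near-identical guides may have been divided differently by the authors' counting. let-7i-5p had 0.07 within lane L001 and 0.36 within lane L002, whereas let-7b-5p had -0.44 and -0.40.

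The summed let-7 level was close between the groups, while the share of let-7b-5p differed in value. The 11 guides together came to 140382 ± 13813 CPM in wild type (SD, n = 8) and 135709 ± 15080.2 CPM with Vorinostat (SD, n = 10). let-7b-5p made up 3.94 ± 0.84% of that sum in wild type and 3.05 ± 0.42% with Vorinostat. In transgenic vehicle it made up 3.85 ± 0.49% (SD, n = 7).

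**Figure D2:**
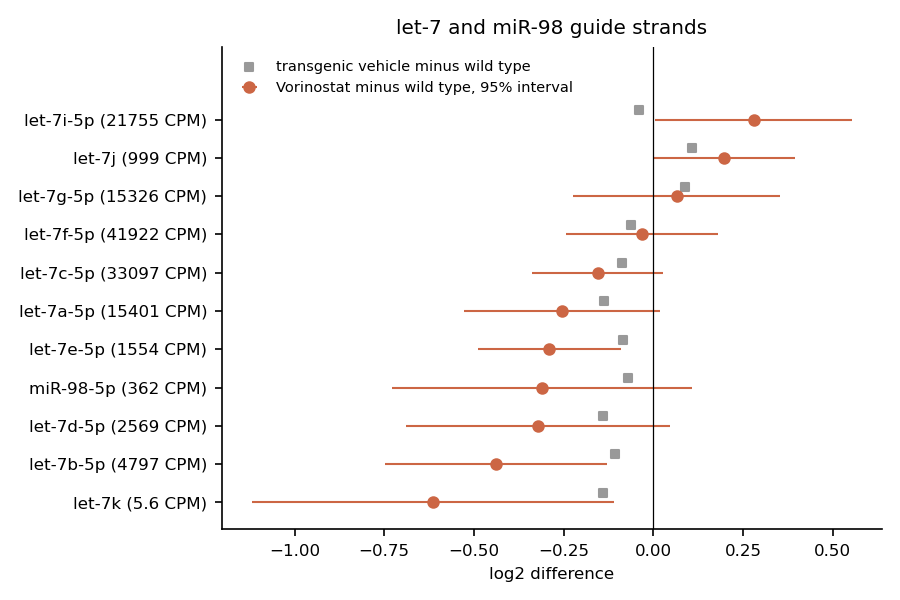
Log2 differences of the 11 let-7 and miR-98 guide strands, ordered by value, with the mean CPM over the 18 libraries beside each name. Orange circles with 95% intervals are Vorinostat minus wild type and grey squares are transgenic vehicle minus wild type: let-7k, let-7b-5p and let-7e-5p have intervals below 0, let-7i-5p and let-7j lie at the other end, and the grey squares stay between -0.14 and 0.11.

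miR-34b-3p belongs to a cluster transcribed from the strand opposite Btg4 (chr9:51103574-51103595), whose transcription p53 is known to activate. Its levels were lowest 3.21, median 7.29 and highest 12.4 CPM in wild type, and lowest 1.54, median 3.99 and highest 8.73 CPM with Vorinostat. Of the Vorinostat libraries, 9 of 10 lay below the wild type mean and 4 below every wild type library. This gave a log2 difference of -0.69 (SE 0.28, unadjusted p = 0.0191). The transgenic vehicle median was 8.36 CPM, at 0.07 (SE 0.30) from wild type.

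The rest of the miR-34 family had smaller values and wider relative errors. miR-34c-3p, 530 bases away, had -0.64 (SE 0.39) at a mean of 0.962 CPM. The guides miR-34b-5p, miR-34c-5p and miR-34a-5p had -0.10 (SE 0.24), -0.16 (SE 0.25) and 0.22 (SE 0.36). In all 4 of 5 family members were below 0.

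miR-188-5p, which lies in an intron of the chloride channel gene Clcn5 on the X chromosome and has been linked to synaptic plasticity, was rare. Its lowest, median and highest levels were 0.776, 1.37 and 1.57 CPM in wild type and 0, 0.668 and 1.17 CPM with Vorinostat. These rest on 10 to 25 reads per wild type library and 0 to 15 per Vorinostat library. Although 10 of 10 Vorinostat libraries were below the wild type mean, the groups overlapped, and the log2 difference was -0.85 (SE 0.30, unadjusted p = 0.00819). Transgenic vehicle was also low, with a median of 0.710 CPM and a difference of -0.70 (SE 0.32) from wild type. The 8 tested members of the Clcn5 cluster had a median of -0.11, and the abundant miR-532-5p had 0.19 (SE 0.22).

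miR-23b-5p is the passenger strand of a hairpin on chromosome 13 that is transcribed with miR-27b and miR-24. Its levels were lowest 1.78, median 3.69 and highest 4.49 CPM in wild type, and lowest 1.17, median 2.36 and highest 3.26 CPM with Vorinostat. The lowest wild type library, replicate 4, stood apart from the other 7, which began at 3.15 CPM. The log2 difference was -0.64 (SE 0.23, unadjusted p = 0.00882), and the hairpin's abundant strand miR-23b-3p, at a mean of 323 CPM, had -0.24. The abundant miR-27b-3p and miR-24-3p of the same cluster had -0.01 (SE 0.13) and -0.09 (SE 0.09). miR-7080-3p, which overlaps an exon of Cpne7, had -0.60 (SE 0.24) from a wild type median of 7.14 CPM to 4.18 CPM, and its other arm had 0.07 (SE 0.31).

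The higher side had 2 members of the miR-183 cluster, a set of 3 hairpins between genes on chromosome 6 that is best known from sensory neurons. miR-182-5p (chr6:30165962-30165986, minus strand) had a lowest, median and highest level of 25.8, 61.5 and 114 CPM in wild type and of 50.8, 81.6 and 279 CPM with Vorinostat. Of the Vorinostat libraries 3 lay above every wild type library, namely replicates 2, 8 and 9, and no Vorinostat library reached the 3 lowest wild type values. The log2 difference was 0.85 (SE 0.32, unadjusted p = 0.0128), and 0.59 (SE 0.28) without Vorinostat replicate 8.

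miR-183-5p (chr6:30169711-30169732) ran from 21.1 through a median of 46.4 to 85.3 CPM in wild type and from 43.3 through 50.1 to 215 CPM with Vorinostat. The medians were close, and the 3 Vorinostat libraries above every wild type library were again replicates 2, 8 and 9. It differed by 0.73 on the log2 scale (SE 0.34, unadjusted p = 0.0408). Without Vorinostat replicate 8 it was 0.44 (SE 0.30). miR-96-5p, 205 bases from miR-183, had 0.42 (SE 0.42) at medians of 3.70 and 3.63 CPM.

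Transgenic vehicle lay on the other side of wild type for this cluster. miR-182-5p ranged from 31.98 to 59.7 CPM there, a log2 difference of -0.41 (SE 0.34) from wild type, and miR-183-5p had -0.35 (SE 0.37). Against transgenic vehicle the Vorinostat libraries differed by 1.26 (SE 0.34) for miR-182-5p, with an edgeR adjusted p of 0.588. With wild type vehicle replicate 1 included, the sign against wild type changed to -0.31 (SE 0.51) for miR-182-5p and -0.18 for miR-183-5p, so their direction depends on leaving out that library.

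miR-10b-5p lies in introns of Hoxd3 and Hoxd4 (chr2:74726074-74726096) and is typical of hindbrain and spinal cord. Its levels were lowest 1.16, median 3.83 and highest 7.94 CPM in wild type, and lowest 2.34, median 6.16 and highest 91.7 CPM with Vorinostat. The highest value was that of replicate 8, and the other 9 Vorinostat libraries ended at 16.9 CPM. The log2 difference was 1.84 (SE 0.68, unadjusted p = 0.0123) and 0.72 (SE 0.50, unadjusted p = 0.161) without that library. Its relative miR-10a-5p, against which miR-10b-5p carries U12A, had 0.47 (SE 0.27). Transgenic vehicle reached 16.8 CPM for miR-10b-5p.

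miR-486a-3p and miR-486b-3p are the rare strands of overlapping hairpins on opposite strands, whose 5p strand is the one abundant in red blood cells. That 5p strand, at a mean of 511 CPM over the 18 libraries, differed by 0.23 (SE 0.16, edgeR unadjusted p = 0.162). miR-486a-3p was lowest 2.54, median 4.93 and highest 7.16 CPM in wild type and lowest 3.07, median 5.62 and highest 17.6 CPM with Vorinostat. The 4 Vorinostat libraries above every wild type library were replicates 5, 6, 8 and 9, all from lane L002. The log2 difference of 0.75 (SE 0.30, unadjusted p = 0.0187) was -0.20 (SE 0.31) within lane L001 and 1.11 (SE 0.36) within lane L002. The test of the lane by group term, added after seeing the data, gave an unadjusted p of 0.0109 and an edgeR adjusted p of 0.971. miR-486b-3p had 0.66 (SE 0.29) in all libraries, -0.22 within L001 and 0.96 within L002. Both entries had close counts, with 1326 and 1519 reads over the 18 libraries and 32 reads each in Vorinostat replicate 8. They may therefore not be separate observations, and whether they share reads was not tested.

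miR-212-5p shares a hairpin cluster on chromosome 11 with miR-132, whose transcription neuronal activity induces. Its levels were lowest 494, median 654 and highest 751 CPM in wild type and lowest 616, median 775 and highest 939 CPM with Vorinostat. Here 6 of 10 Vorinostat libraries lay above every wild type library, and 3 of the other 4 lay in lane L001. This gave a log2 difference of 0.26 (SE 0.11, unadjusted p = 0.0236), with 0.07 within L001 and 0.40 within L002. The other products of the cluster had values near 0: miR-132-3p -0.01 (SE 0.12), miR-132-5p 0.06 (SE 0.13) and miR-212-3p -0.07 (SE 0.20).

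miR-598-3p had a lowest, median and highest level of 274, 338 and 523 CPM in wild type and of 304, 414.5 and 538 CPM with Vorinostat, and 9 of 10 Vorinostat libraries lay above the wild type mean. The log2 difference was 0.28 (SE 0.13, unadjusted p = 0.0342), at 0.26 within L001 and 0.17 within L002. miR-668-5p of the Dlk1-Dio3 imprinted region on chromosome 12 had 0.66 (SE 0.27) at medians of 1.09 and 1.59 CPM, on 3 to 33 reads per library. Its abundant sister strand miR-668-3p had -0.06 (SE 0.14).

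**Figure D3:**
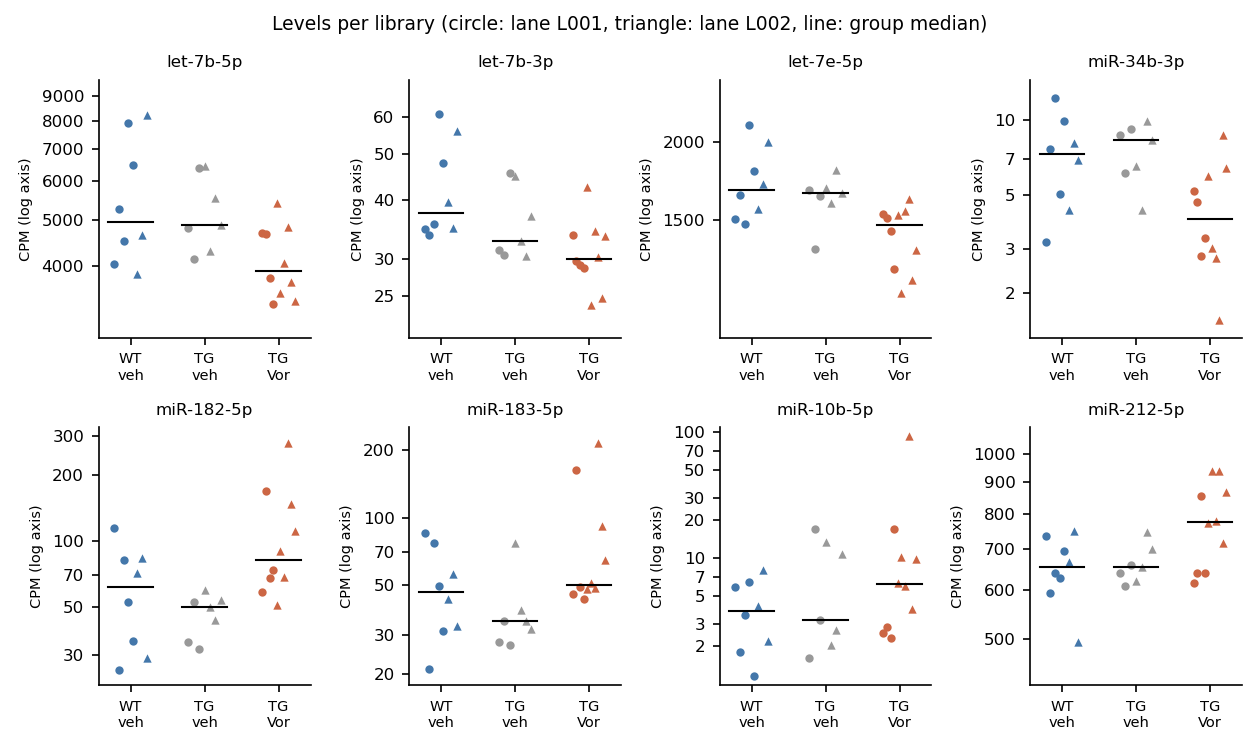
CPM per library, on a log axis, of 8 miRNAs in wild type vehicle (WT veh, 8 libraries), transgenic vehicle (TG veh, 7) and transgenic Vorinostat (TG Vor, 10), with circles for lane L001, triangles for lane L002 and a line at the group median. The groups overlap in every panel: let-7b-5p ends at 5419 CPM with Vorinostat against 8226 in wild type, and miR-10b-5p has 1 Vorinostat library at 91.7 CPM.

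**Figure D4:**
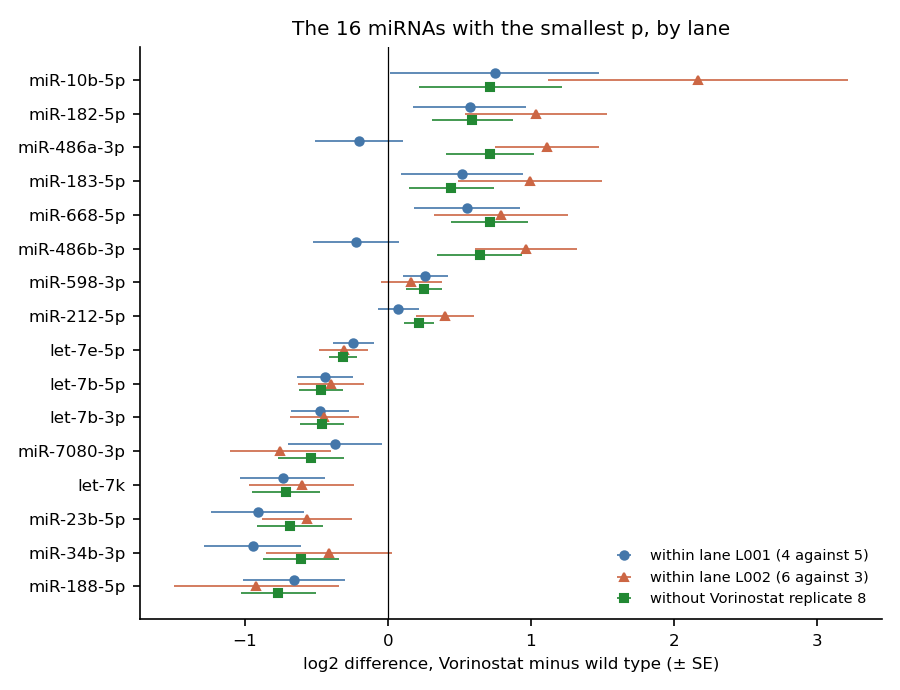
Log2 differences (Vorinostat minus wild type, ± SE) of the 16 miRNAs with the smallest p, within lane L001 (blue circles, 4 against 5 libraries), within lane L002 (orange triangles, 6 against 3) and without Vorinostat replicate 8 (green squares). let-7b-5p, let-7b-3p and let-7e-5p lie below 0 in each, miR-486a-3p lies at -0.20 in 1 lane and 1.11 in the other, and miR-10b-5p, at 1.84 over both lanes with replicate 8, lies at 0.72 without it.

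Groups of miRNAs typical of cell types were then described, since in dissected tissue fewer cells of a type and less RNA per cell cannot be told apart. The 19 neuron-enriched miRNAs had a median log2 difference of -0.02 beside -0.01 over all tested, with 9 higher, 10 lower and 0 at an unadjusted p under 0.05. Their summed level ran from 403800 to 501640 CPM in wild type and from 409916 to 553290 CPM with Vorinostat. Most of it came from miR-128-3p and miR-9-5p, with wild type means of 223010 and 127674 CPM. No other region was compared, so the sum does not tell CA1 from other brain tissue. Within the list miR-124-3p had -0.27 (SE 0.24) and miR-129-5p 0.50 (SE 0.31). The 15 miRNAs of synaptic plasticity and activity had a median of -0.01, with 7 higher and 8 lower. At an unadjusted p under 0.05 in edgeR, 1 was higher (miR-212-5p) and 2 were lower (miR-125a-5p and miR-188-5p). Over all 606 tested miRNAs, 11 were higher and 14 lower at that threshold.

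Markers of glia lay on both sides of 0. The 7 oligodendrocyte miRNAs had a median of 0.03, and their abundant member miR-219a-2-3p, which promotes maturation of these cells, had 0.18 (SE 0.15). Of the 6 tested astrocyte miRNAs 5 were lower, with a median of -0.22, which was -0.0004 within lane L001 and -0.23 within lane L002. The lower ones include miR-29a-3p, miR-29b-3p and miR-29c-3p, which return below in the miR-29 family. The higher one, miR-143-3p, is also in the vessel wall list. miR-29b-3p accounted for the low end with -0.55 (SE 0.30), from a median of 1545 CPM in wild type to 838 CPM with Vorinostat, and miR-29a-3p had -0.20 (SE 0.18). The 7 tested microglia and leukocyte miRNAs had a median of -0.04, and miR-146a-5p, induced in inflammation, had 0.00 (95% interval -0.29 to 0.30).

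Among markers of vessels, blood and neighbouring structures, single libraries or 1 lane stood out. The 10 tested endothelium and vessel wall miRNAs had a median of 0.04. Their summed level reached 25642 CPM in Vorinostat replicate 8, against at most 14927 CPM in wild type, and the smooth muscle miRNA miR-143-3p was at 15602 CPM there, against 1805 to 4929 CPM in the other Vorinostat libraries. miR-143-3p had 0.64 (SE 0.35) with and 0.18 without that library. In the same list miR-126b-3p and miR-126b-5p had 0 reads in the 18 libraries.

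The erythrocyte list had 7 entries but at most 6 separate measurements. miR-486a-5p and its copy miR-486b-5p had the same counts in every library and are taken once here. miR-486a-3p and miR-486b-3p, with close but not identical counts, are kept apart. Of the 6, 5 were higher, with a median of 0.32, which was -0.02 within lane L001 and 0.58 within lane L002. miR-451a, the leading miRNA of red blood cells, had medians of 177 and 193 CPM and a difference of 0.33 (SE 0.20), and the summed list ran from 541 to 759 CPM in wild type and from 598 to 1339 CPM with Vorinostat. The 9 tested choroid plexus and ependyma miRNAs had a median of 0.29, with 7 higher, at 0.49 within L001 and 0.09 within L002. Their defining member miR-204-5p had -0.08 (SE 0.12), and the epithelial miR-200b-3p had 0.43 (SE 0.40), with a wild type range of 18.6 to 138 CPM. The part of blood, vessel or epithelial RNA in the differences of other miRNAs was not tested.

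The heart and skeletal muscle list is of interest if the transgene is expressed in heart muscle, though the labels do not name its promoter. The list had a median of 0.00 over 5 tested members. miR-1a-3p, abundant in heart and also read in brain, had medians of 422 and 474 CPM and a difference of 0.18 (SE 0.17), and miR-133a-3p had -0.19 (SE 0.41). The cardiac markers miR-208a-3p and miR-208b-3p had 0 reads in the 18 libraries. The 69 tested miRNAs of the Dlk1-Dio3 imprinted region had a median of -0.04, with 28 higher, 41 lower and 0 at an unadjusted p under 0.05. Its abundant members miR-127-3p and miR-381-3p had 0.41 (SE 0.24) and 0.28 (SE 0.24). Vorinostat replicate 8 had the highest sum of the list, and without it they had 0.25 (SE 0.22) and 0.17 (SE 0.24).

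Further families had medians within the quartiles of all tested miRNAs, apart from miR-29. The 7 miR-29 strands had a median of -0.22 with 5 lower, at -0.05 within lane L001 and -0.39 within lane L002. The 5 miR-30 strands had a median of -0.10, the 8 of the miR-17 clusters -0.10 and the 4 miR-181 members 0.02. In the miR-181 family miR-181a-5p was bounded closely, at 0.03 (95% interval -0.14 to 0.21). In the miR-30 family miR-30d-5p had 0.16 (SE 0.11) and miR-30c-5p -0.28 (SE 0.31).

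**Figure D5:**
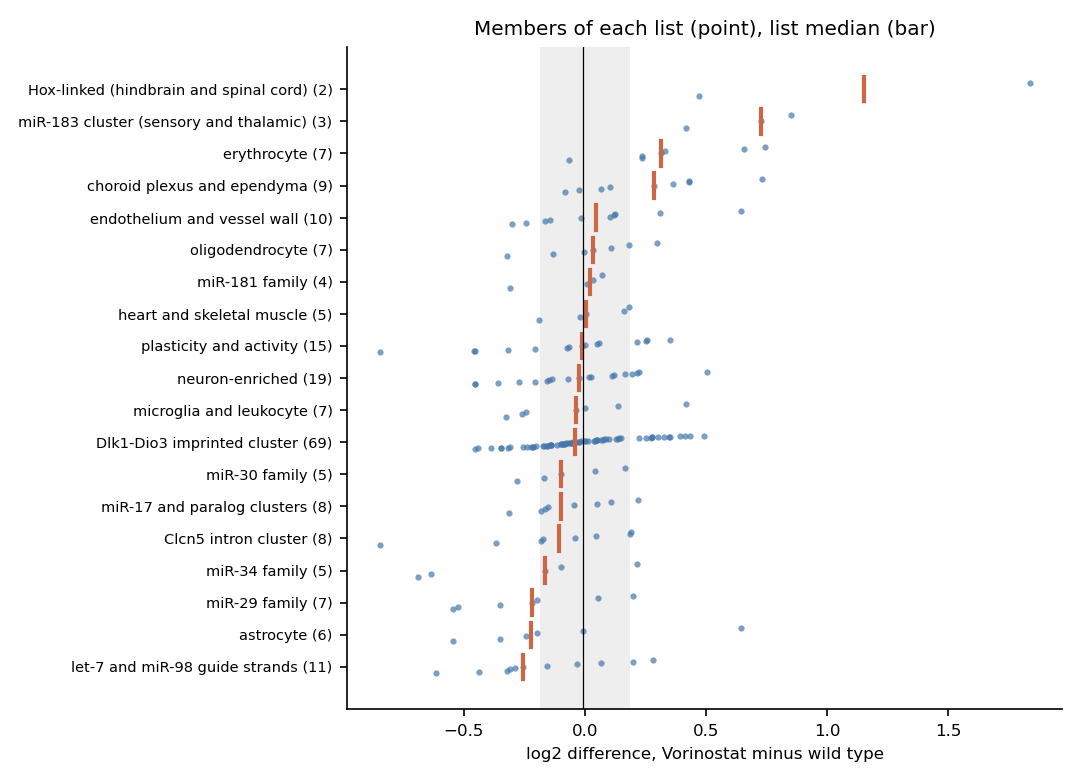
Log2 differences (Vorinostat minus wild type) of the tested members of 19 lists, 1 point per miRNA, with a bar at the list median and the number of tested members beside the name (the erythrocyte list draws its 2 entries of identical counts as 2 points). The grey band spans the quartiles of all 606 tested miRNAs, -0.18 to 0.18, and the black line their median: the let-7, astrocyte and miR-29 medians lie below the band and the erythrocyte, choroid plexus, miR-183 and Hox-linked medians above it.

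The authors' own co-expression modules divided by sign. Over all 606 tested miRNAs 291 were higher with Vorinostat and 315 lower. Of the 180 tested miRNAs of the blue module 150 were higher (median 0.23), and of the 358 of the turquoise module 254 were lower (median -0.11). Without Vorinostat replicate 8 the medians were 0.11 and -0.07. With the first principal component as a covariate, an alternative added after seeing the data, they were 0.01 and -0.02. Within lane L001 the blue median was -0.06 and within lane L002 it was 0.31. The modules were built by the authors on libraries that include these.

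The same contrast gave calls on the table of log2 values that the authors normalized. With limma 16 of 674 miRNAs passed an adjusted p of 0.05 (2.37%), 3 higher (0.445%) and 13 lower (1.93%). The median log2 difference of that table was -0.13, so the values that follow are also relative to it. Of the 16, 11 were tested on counts, where all 11 had the same sign and 5 had an unadjusted p under 0.05, but each had an edgeR adjusted p of 0.884. The within-group SD was smaller in the normalized values than in log2 CPM for 16 of 16, with medians of 0.27 and 0.51, but a test that favours a small SD chose these 16. Over the 337 miRNAs of at least 10 CPM in both tables the median SDs were 0.33 and 0.43. The method of normalization is not named in the labels or file headers, and the values are not independent of the counts.

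miR-34b-3p, let-7e-5p, let-7b-5p, let-7c-5p and miR-10b-5p were among the 16. miR-34b-3p was at 6.22 ± 0.28 in wild type (SD, n = 8) and at 5.46 ± 0.38 with Vorinostat (SD, n = 10) on the normalized log2 scale, and the ranges of 5.62 to 6.47 and 4.95 to 6.05 overlapped. The difference was -0.76 (SE 0.15, limma adjusted p = 0.00505), or -0.63 relative to the table median. let-7e-5p had -0.43 (SE 0.09, limma adjusted p = 0.0101), which is -0.30 relative to the median. let-7b-5p had -0.50 and let-7c-5p -0.31 (limma adjusted p = 0.0338 for both), and miR-10b-5p had 1.47 (limma adjusted p = 0.0232).

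Which miRNAs passed, and the split into higher and lower, depended on the scaling. Centring each library on its own median moved each of the 16 differences up by 0.20, and 16 of 16 kept their sign. With each library centred on its own median, an alternative added after seeing the data, 15 miRNAs passed, 12 higher and 3 lower, and 6 of the 16 were among them. let-7e-5p, let-7b-5p and let-7c-5p were not, with -0.22, -0.29 and -0.11 and limma adjusted p of 0.15, 0.221 and 0.456. Fitted on the 18 libraries alone 5 passed, and with wild type vehicle replicate 1 included 6 passed. Called under each of the 7 settings of this table were miR-34b-3p, miR-7220-3p and miR-344e-3p, singled out after their values were seen.

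miR-7220-3p had the smallest limma adjusted p, 0.00175, at 4.48 ± 0.23 in wild type (SD, n = 8) and 3.82 ± 0.24 with Vorinostat (SD, n = 10). In counts it averaged 9.17 reads per library and 0.970 CPM in wild type against 0.581 CPM with Vorinostat, a log2 difference of -0.69 (SE 0.39). Its normalized values thus lay 3.78 log2 units above log2 CPM. miR-344e-3p was higher by 0.54 (limma adjusted p = 0.00505), with 6.89 reads per library on average, below the filter for counts. Among normalized miRNAs under 10 CPM this offset ran from -12.2 to 6.50 log2 units, and among the 172 of at least 100 CPM it was within 1 unit for 97.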

How the data were processed

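Small RNA of CA1 tissue was sequenced with the TruSeq Small RNA kit on a HiSeq2000, per the labels' protocols. FastQC 0.11.5 and mm10 (GRCm38) appear in the submitters' processing notes. Aligner, annotation and counting method are not given in these sources. The authors deposited raw counts for 1915 mature miRNA entries, of which 526 had no read and 144 had counts identical to another entry. The authors also deposited log2 normalized values for 674 miRNAs, and module memberships, a score from -1 to 1 per the file headers. No column was left unmapped.

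Counts were fitted with edgeR 4.0.16 (R 4.3.3) on 25 libraries in 3 groups: TMM factors (0.83 to 1.11 with Vorinostat, 0.94 to 1.10 in wild type), filterByExpr (minimum count 10, minimum total 15), quasi-likelihood test, two-sided, Benjamini-Hochberg over 606 miRNAs. CPM is the count divided by the library's total over the 606 tested miRNAs and by its TMM factor, on a scale of 1e6. SDs of log2 CPM used library totals and a pseudocount of 0.5 CPM. SE is the log2 difference divided by the root of F. limma 3.58.1, on the normalized values and as voom, and DESeq2 1.42.0 were also used, and exact permutation tests came from SciPy 1.17.1. The scripts were tested on simulated data. Counts carry no molecular identifiers.

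Named were, by smallest unadjusted p, 8 miRNAs on each side, the 5 most abundant, the 2 most abundant of each list and 9 known from earlier results. Members and lists were chosen with earlier results of these data known. Host genes are from GENCODE vM21. Alternatives covered scaling, filter, tool, lane, pairing and left-out libraries.

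Same-numbered libraries of both groups had correlations of their deviations from -0.41 to 0.48. With both signs present, this check cannot settle whether the numbers mark pairs, and the main fit did not use them.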

Additional observations from a re-analysis of the deposited data

Results flagged for a closer look

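In 4 of 104 groups of libraries examined, a single library stood apart from its group by Dixon's ratio. Chance alone gives about 1 in 20. miR-10b-5p was at 91.7 CPM in Vorinostat replicate 8, with the other Vorinostat libraries between 2.34 and 16.9 CPM, and the log2 difference from wild type was 0.72 without it. miR-143-3p was at 15602 CPM in the same library, with the others between 1805 and 4929 CPM. miR-23b-5p was at 1.78 CPM in wild type vehicle replicate 4, with the others between 3.15 and 4.49 CPM. miR-181b-5p was at 3217 CPM in Vorinostat replicate 5, with the others between 2301 and 2743 CPM.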

How the results depend on the processing

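On counts, 0 miRNAs passed in each of the 34 alternatives, with 9 to 57 at an unadjusted p under 0.05 (140 of 1389 with no filter) and a smallest adjusted p of 0.318. Library totals alone shifted the median difference of all miRNAs to -0.10. With the replicate block 0 passed (57 at an unadjusted p under 0.05). The replicate numbers are shared by 8 pairs of libraries, 6 of which correlated over 0.1 and 3 of which correlated best with their own number. Pairing by number was thus neither shown nor excluded. On the authors' normalized values, where 16 passed, 5 passed with only the 18 libraries, 6 with wild type vehicle replicate 1 and 54 with the replicate block. For total counts the difference turned to 0.236 M (1e6 counts) with wild type vehicle replicate 1.

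Of 51 named miRNAs, 27 changed sign under some alternative, and the cause was not tested. With wild type vehicle replicate 1 the log2 differences became -0.31 for miR-182-5p, -0.18 for miR-183-5p, 0.12 for miR-26a-5p, -0.14 for miR-127-3p, -0.063 for miR-486a-5p and miR-486b-5p, 0.025 for miR-204-5p, -0.24 for miR-92a-3p and -0.045 for miR-381-3p. Within lane L001 they were -0.20 for miR-486a-3p, -0.22 for miR-486b-3p, -0.063 for miR-128-3p, -0.086 for miR-99a-5p, 0.022 for miR-26a-5p, -0.0010 for miR-126a-3p, -0.085 for miR-486a-5p and miR-486b-5p, 0.11 for miR-133a-3p, -0.079 for miR-10a-5p, -0.10 for miR-501-3p and -0.048 for miR-381-3p. Within lane L002 they were 0.087 for miR-204-5p, -0.10 for miR-200b-3p, 0.085 for let-7f-5p, -0.066 for miR-181a-5p, -0.034 for miR-181b-5p, 0.046 for miR-34c-5p, -0.0042 for miR-34a-5p and -0.13 for miR-92a-3p. With lane as a covariate they were -0.0010 for miR-181b-5p and -0.0070 for miR-92a-3p.

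With library totals only the values were -0.063 for miR-9-5p, -0.037 for miR-338-5p, -0.073 for miR-146a-5p, -0.046 for miR-181a-5p, -0.075 for miR-181b-5p and -0.052 for miR-92a-3p. With only the 18 libraries they were -0.015 for miR-9-5p, -0.0013 for miR-338-5p, -0.032 for miR-146a-5p, -0.00017 for miR-181a-5p and -0.023 for miR-181b-5p. limma voom gave -0.038 for miR-338-5p and -0.0067 for miR-146a-5p, a mean of at least 10 CPM gave -0.011 for miR-146a-5p and -0.0013 for miR-181b-5p, and the replicate block gave -0.0094 for miR-338-5p and 0.0020 for let-7f-5p. With the first principal component as a covariate, added after seeing the data, they were 0.015 for miR-26a-5p, -0.012 for miR-146a-5p, 0.066 for miR-133a-3p, 0.0067 for let-7f-5p, -0.056 for miR-92a-3p and -0.070 for miR-501-3p. Without Vorinostat replicate 8 this covariate gave 0.028 for miR-26a-5p, 0.011 for miR-133a-3p, -0.074 for miR-92a-3p and -0.071 for miR-501-3p.

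Leaving out each of the 18 libraries in turn gave -0.088 to 0.028 for let-7f-5p, -0.038 to 0.13 for miR-146a-5p, -0.029 to 0.061 for miR-181b-5p, -0.13 to 0.012 for miR-26a-5p, -0.079 to 0.11 for miR-338-5p, -0.022 to 0.068 for miR-9-5p, -0.051 to 0.13 for miR-92a-3p and -0.089 to 0.81 for miR-96-5p. let-7b-5p stayed between -0.50 and -0.32, let-7b-3p between -0.52 and -0.35, let-7e-5p between -0.31 and -0.21, miR-182-5p between 0.59 and 1.09 and miR-10b-5p between 0.72 and 2.05. Precision was lower for rare miRNAs, with a median SE of 0.32 under 10 CPM against 0.17 at 1000 CPM and above, and sequencing depth itself was not varied.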
